A study of Mus musculus with 44 samples.

Results

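Dusp1, Dusp4, Dusp5, Dusp6, Spry2 and Spry4 are the feedback inhibitors of ERK signalling examined here, 4 phosphatases and 2 Sprouty genes, through the open chromatin around each. Sites were windows of 500 bp, without overlaps, centred on the best 75000 summits of each deposited peak list, on mouse genome build mm10. Windows that overlapped a member's gene body extended by 75 kb on each side were given to the nearest member. Of 135496 sites of 500 bp found over 44 libraries, 146 belonged to these 6 genes: 36 to Dusp1, 20 to Dusp4, 36 to Dusp5, 24 to Dusp6, 15 to Spry2 and 15 to Spry4.

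ERK is a kinase at the end of the Ras, Raf and MEK cascade, and in neurons calcium entry during depolarization activates it. Active ERK drives transcription of its own inhibitors, so the signal shortens itself. Dusp1 encodes a nuclear phosphatase that removes phosphate from p38, JNK and ERK. Dusp4 encodes a nuclear phosphatase of the same class, and Dusp5 a nuclear one that is selective for ERK. Dusp6 encodes a cytoplasmic phosphatase selective for ERK. Spry2 and Spry4 encode Sprouty proteins, which dampen the path between receptor tyrosine kinases and Ras. ATAC-seq reads the DNA that a transposase can reach, so the measurements below concern chromatin and not RNA.

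The study asked how the chromatin remodelling complex BAF takes part in the response of neurons to activity. Cortical neurons from mouse embryos at E16.5 were cultured, and all wells were silenced overnight with 1 µM tetrodotoxin and 100 µM D-AP5, so every unstimulated library is from silenced cells. In the first experiment, at 7 days in vitro (DIV7), neurons labelled wild type received 50 mM KCl or stayed unstimulated for 10 or 30 min, with FHT1015 at 100 nM, which inhibits the ATPase of BAF, or with 0.1% DMSO. In the second, also at DIV7, neurons carried a CRISPR guide against Arid2, a subunit of the PBAF form, or a non-targeting guide, and received KCl for 30 min or stayed unstimulated. In the third, at DIV18, neurons with a guide against Smarcc2, a BAF subunit, carried the Smarcc2 mutants S586A or S586E, wild-type Smarcc2 or the empty vector, beside neurons with the non-targeting guide, each with KCl for 30 min or unstimulated. Each of the 22 groups had 2 libraries. The labels treat the cortex of an embryo as a biological replicate but do not tie libraries to embryos, so p-values measure the spread between libraries, which may be technical. The share of edited cells is not given in the sources used here, and per the labels DNase was present in the wells during the treatments.

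Read depth was not known directly. The steps of the authors' fold enrichment gave each library's background in reads per base. It was 2.93 to 8.39 in the libraries of the FHT1015 experiment, 0.942 to 3.68 at DIV18 and 1.39 to 1.80 for Arid2 and its controls. FHT1015 libraries listed 233609 to 364986 autosomal summits, against 340149 to 389907 in DMSO libraries. The start sites of the neuronal genes Tubb3, Map2 and Syt1 were among the best 75000 summits of all 44 libraries, and those of Slc17a7, Gad1 and Gad2, of excitatory and inhibitory neurons, of 32, 33 and 24. Those of the astrocyte genes Gfap, Aldh1l1 and Slc1a3 were in 30, 41 and 42 libraries, those of Olig2 and Pdgfra, of the oligodendrocyte lineage, in 39 and 4, those of the vascular genes Cldn5 and Kdr in 6 and 17, and that of P2ry12, a microglial gene, in 1; the part of these cells in the results was not tested. No start site could be read for the other marker genes listed, Rbfox3, Snap25, Aqp4, Sox10, Mbp, Cx3cr1, Aif1, Csf1r and Pecam1. In bulk samples, a change in the share of a cell type and a change within cells cannot be told apart. Libraries labelled with a Smarcc2 add-back held 28 to 34 of the best summits in the Smarcc2 gene body, against 1 to 7 in all other libraries; the knockouts themselves cannot be read from peak lists.

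Promoter sequences were looked up in RefSeq for build GRCm38.p6, and 4 of the 6 members matched. They are shown for the 3 phosphatases whose start sites anchor the results below, from 250 bases before to 50 after the start, in the direction of transcription. Dusp1 lies on the minus strand at chr17:26508423-26508722, Dusp5 on the plus strand at chr19:53528895-53529194 and Dusp6 on the plus strand at chr10:99262981-99263280. Capitals mark matches, on either strand, to the cyclic AMP response element TGACGTCA, to its core TGACG and to the CArG box, the motif read by serum response factor.
Dusp1: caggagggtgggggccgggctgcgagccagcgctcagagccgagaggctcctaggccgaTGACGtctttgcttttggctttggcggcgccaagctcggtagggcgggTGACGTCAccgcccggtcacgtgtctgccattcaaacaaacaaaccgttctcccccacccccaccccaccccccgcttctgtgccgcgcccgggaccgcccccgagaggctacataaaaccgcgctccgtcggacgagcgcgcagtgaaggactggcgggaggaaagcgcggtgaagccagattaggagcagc
Dusp5: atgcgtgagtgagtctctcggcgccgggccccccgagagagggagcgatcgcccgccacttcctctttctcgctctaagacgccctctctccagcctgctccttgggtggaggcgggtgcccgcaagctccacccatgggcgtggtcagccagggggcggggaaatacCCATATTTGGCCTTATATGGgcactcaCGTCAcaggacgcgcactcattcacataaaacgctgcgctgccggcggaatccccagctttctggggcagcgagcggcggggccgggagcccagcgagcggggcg
Dusp6: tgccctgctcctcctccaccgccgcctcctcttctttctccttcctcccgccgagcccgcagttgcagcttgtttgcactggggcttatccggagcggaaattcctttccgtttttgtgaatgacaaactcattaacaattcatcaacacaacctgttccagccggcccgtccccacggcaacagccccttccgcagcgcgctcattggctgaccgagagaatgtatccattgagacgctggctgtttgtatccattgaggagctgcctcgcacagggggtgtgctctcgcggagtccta
The Dusp1 promoter held TGACGTCA 143 bases before the start, a motif found in 1.79% of 32851 promoters of this length, and the core TGACG 191 bases before it and within TGACGTCA at 143 and 140. The core was found in 20.8% of promoters. The Dusp5 promoter held CArG boxes 82 and 72 bases before the start, which 1.63% of promoters hold, and 1 core 55 bases before it. The Spry2 promoter held the ETS motif CCGGAA 34 bases after the start, as did 14.9% of promoters somewhere in the window, and the AP-1 motif TGANTCA, held by 7.81% of promoters, was in none of the 4. The Dusp6 window held none of these 5 motifs. A match describes letters only, not binding.

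A site was followed by the rank of its best summit in each library's list, rank 1 having the most significant −log10 p. The rank score was the log2 of 178672, the number of autosomal summits in the shortest list, divided by the rank, and a site ranked lower or not listed scored 0. A change of 1 in rank score is a rank divided by 2, so a lower rank number means more accessible relative to the rest of that library. Changes were tested with limma over all sites of an experiment and called at an adjusted p under 0.05. A change measured against a group at score 0 starts from the end of the list.

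All 6 genes had an accessible site within 1 kb of the start in every library, at very different heights. The Dusp6 start site (10:99262995-99263494) had a median rank of 405.5 over the 44 libraries, with 150.5 the best and 865.5 the worst. The site −0.6 kb from the Spry2 start had a median rank of 1820 and ran from 829 to 4084.5. The Dusp1 start followed at a median of 4016, the Dusp5 start at 5331, the site −0.5 kb from the Dusp4 start at 6824 and the Spry4 start at 8406. For Dusp4 and Spry2 these are the highest-ranked sites within 1 kb, chosen after their values were seen. The site nearest to the start had a median rank of 20652 at Dusp4, and at Spry2 it was listed in 33 of 44 libraries, at 42730 or lower. The libraries' ranges for Dusp1, Dusp5, Dusp4 and Spry4 overlapped, from 1291 to 12311 at Dusp1 to 3840 to 27510.5 at Spry4. Of the sites over 1 kb from the start and outside the gene body, the highest-ranked by median was at −53.0 kb for Dusp1 (7096.75), +83.1 kb for Dusp4 (5557.75), +70.9 kb for Dusp5 (3036.75), −1.4 kb for Dusp6 (12636.8), −1.1 kb for Spry2 (12143.8) and −30.3 kb for Spry4 (22974.5). The −53.0 kb site lay within 1 kb of the starts of other genes, 1700049J03Rik and Ergic1, and the +70.9 kb site within 1 kb of that of Smc3.

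**Figure D1:**
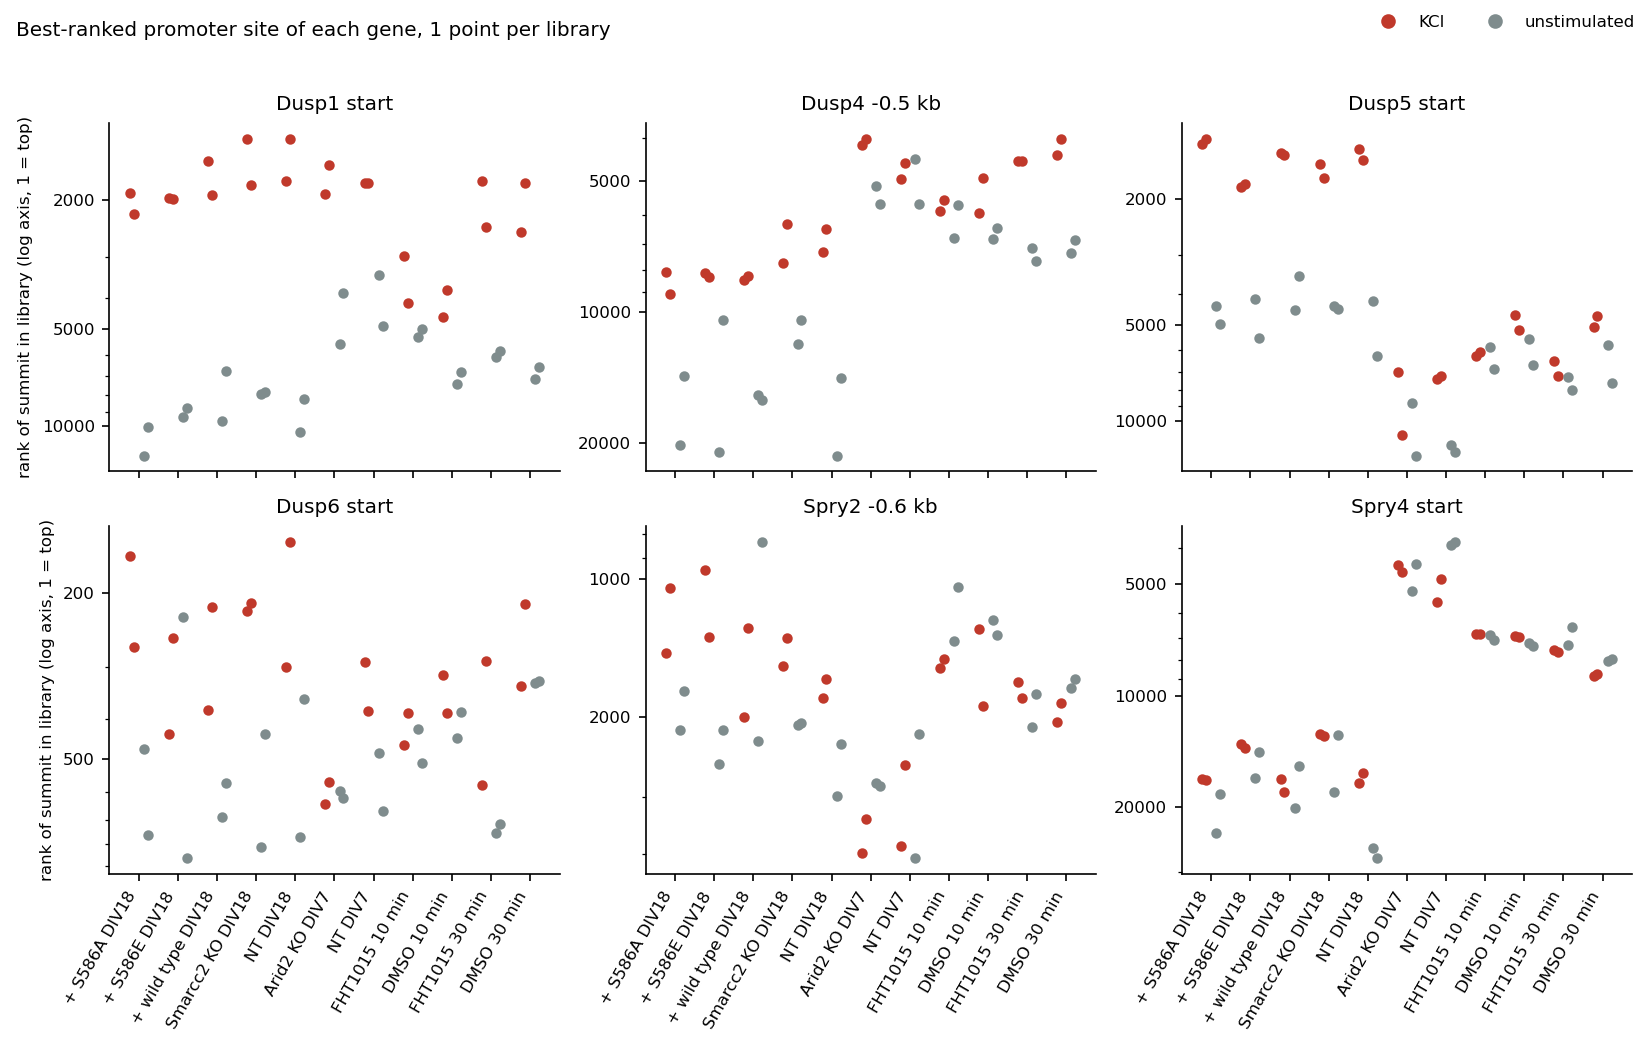
Rank of the best-ranked site within 1 kb of the start of each of the 6 genes in every library (log axis, rank 1 at the top), with the groups on the horizontal axis and 1 point per library. Dusp6 lies between 150.5 and 865.5 throughout, and Dusp1 moves to ranks between 1291 and 2203.5 in the DIV18 KCl libraries, against 6766 to 12311 in the unstimulated ones.

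KCl at DIV18 gave the most calls at these loci by number, though not by share of the sites tested. In non-targeting neurons, 66 of 117 tested sites rose and 0 fell, against 9.72% of all 85822 tested sites that rose and 13.3% that fell; 80 member sites had an unadjusted p under 0.05. The median change was 1.14 at the members and −0.07 over all sites. By gene, 21 of 34 tested sites rose at Dusp1, 4 of 12 at Dusp4, 22 of 33 at Dusp5, 11 of 19 at Dusp6, 6 of 9 at Spry2 and 2 of 10 at Spry4. Many of these sites are neighbours along the same stretch of DNA and are not independent. Of the 117, 36 were held among the best 75000 summits at DIV18 by KCl libraries alone and could hardly fall, and 33 of the 66 calls are among them. Of the 79 held by libraries of both states, 33 rose and 0 fell, against 8.54% and 10.5% of all such sites. With the S586A mutant 46 rose and 2 fell (5.46% and 6.98% of all sites), with S586E 40 and 1 (5.45% and 4.44%), with wild-type Smarcc2 48 and 3 (7.27% and 10.8%) and with the empty vector 49 and 1 (5.03% and 7.72%). Of these rises, 25 with S586A, 24 with S586E, 26 with wild-type Smarcc2 and 31 with the vector were at the 36 sites held by KCl libraries alone. With the best 75000 summits alone the called sites were 24 for S586A, 19 for S586E, 26 for wild-type Smarcc2 and 30 for the vector. Without the first KCl library the count was 14 called sites for S586E, 25 for S586A and 43 for the non-targeting guide, against 41, 48 and 66 with all libraries; without the second it was 28 for wild-type Smarcc2, 31 for the vector and 31 for S586A, against 51, 50 and 48. Without the first unstimulated library it was 27 for S586E and 31 for wild-type Smarcc2.

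**Figure D2:**
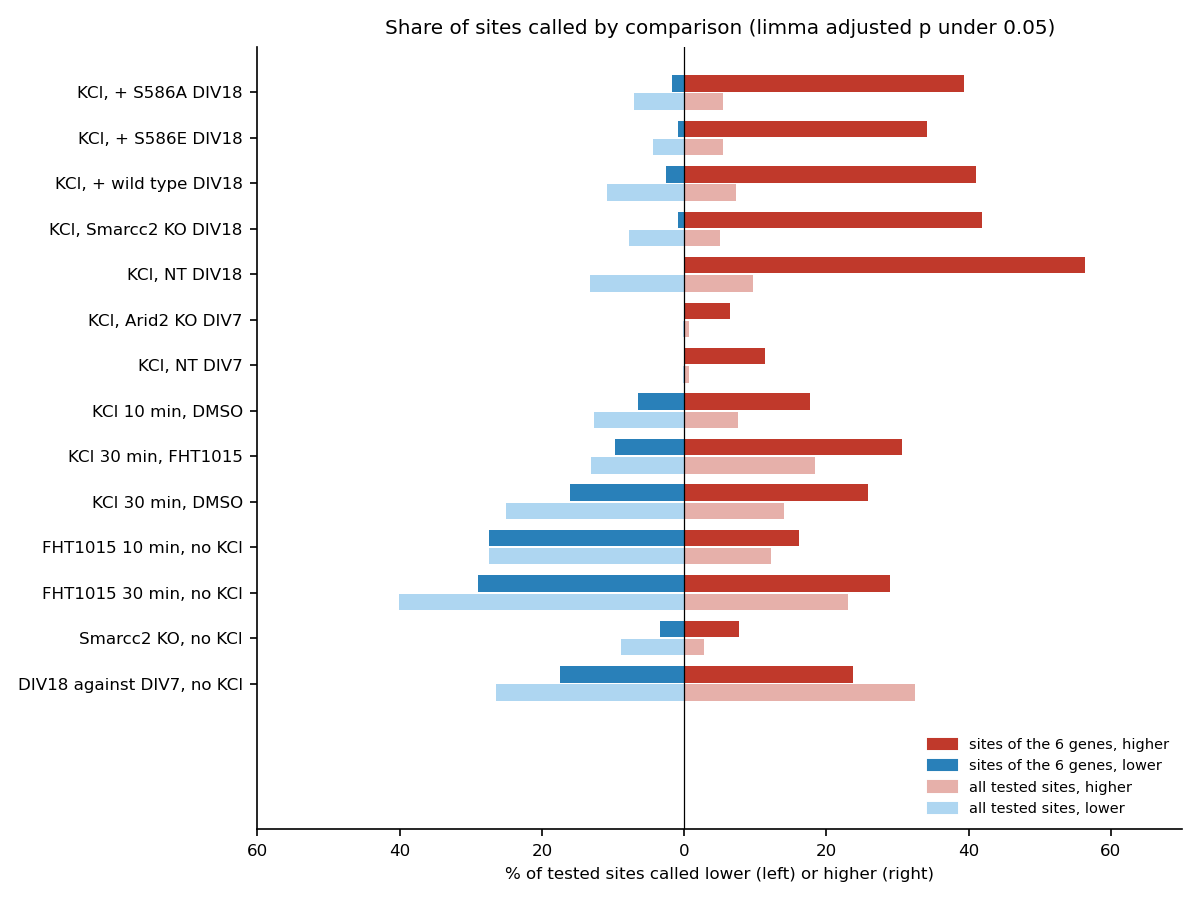
Share of the tested sites at the 6 genes and of all tested sites that were called higher or lower, in percent, for each comparison. In the 5 KCl comparisons at DIV18, 34.2% to 56.4% of the members' sites rose, against 5.03% to 9.72% of all sites.

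Dusp1 rose with KCl in every experiment, both at its start and across the gene and beyond its end. At the start (17:26508197-26508696), non-targeting DIV18 libraries ranked 1742 and 1296.5 with KCl, against 10412.5 and 8220.5 unstimulated. The pairs do not overlap, and the change was 2.62 ± 0.25 (SE, n = 2 libraries each; limma adjusted p = 2.828e-07). With S586A the ranks were 1907 and 2203.5, against 12311 and 10023 unstimulated. With S586E they were 1972 and 1977.5, against 9325.5 and 8783.5, and with wild-type Smarcc2 1516 and 1924.5, against 9618.5 and 6766. The empty vector gave 1291 and 1801.5 with KCl, against 7945 and 7807 unstimulated. All 10 KCl libraries thus lay above all 10 unstimulated ones, and the changes were 2.44, 2.20, 2.24 and 2.37 in that order of genotypes.

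At DIV7 the Dusp1 start moved less in rank. Non-targeting libraries of the Arid2 experiment ranked 1768 and 1776 with KCl, against 3398.5 and 4901 unstimulated, a change of 1.20 ± 0.24 (limma adjusted p = 0.0316). Arid2 knockout libraries ranked 1918.5 and 1554 with KCl, against 5570.5 and 3882.5 unstimulated, a change of 1.43 ± 0.24 (limma adjusted p = 0.00959). The KCl ranks are near those at DIV18, and the unstimulated ones lie closer to the top of the list. The unstimulated start ranked lower at DIV18 than at DIV7 by a change of −1.18 ± 0.25 (limma adjusted p = 0.00341), where day and experiment cannot be told apart. The difference between the KCl responses of DIV18 and DIV7, 1.42 ± 0.35, was not called (limma adjusted p = 0.0655).

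The time course came from the DMSO wells. After 10 min of KCl the Dusp1 start ranked 4596 and 3779, against 7423.5 and 6808.5 unstimulated, and after 30 min 2512 and 1771.5, against 7150 and 6540.5. The changes were 0.77 ± 0.20 (limma adjusted p = 0.0163) and 1.70 ± 0.20 (limma adjusted p = 4.56e-05), and neither pair of groups overlaps. The call at 10 min was lost without either of the unstimulated libraries (adjusted p = 0.0923 and 0.0561) or the second KCl library (0.114). With FHT1015 for 30 min the start ranked 1744.5 and 2424 with KCl, against 6125.5 and 5857.5 unstimulated, a change of 1.54 ± 0.20 (limma adjusted p = 5.645e-05). The difference of that response from the one in DMSO was −0.15 (limma adjusted p = 0.732).

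The member site with the largest change in any KCl comparison lay just past the end of Dusp1, +3.3 kb from its start (17:26504897-26505396), beside the noncoding gene Gm34455 (26467654 to 26504347). In non-targeting DIV18 neurons it ranked 1036 and 1158.5 with KCl, against 139988 and 177640 unstimulated. It thus stood near the top of the list with KCl and far down it without, a change of 7.17 ± 0.53 (limma adjusted p = 2.908e-09). The change was 6.68 with S586A, 5.96 with S586E, 6.14 with wild-type Smarcc2 and 5.65 with the empty vector. At DIV7 the same site ranked 25952 and 29183 with KCl, against 220222 and 89116.5 unstimulated, in non-targeting neurons (2.20 ± 0.41, limma adjusted p = 0.0175). In Arid2 knockout neurons it ranked 24684.5 and 27272, against 107192 and 208884 (2.42), in DMSO at 30 min 83585.5 and 69500, against 291456 and 265704 (1.23 ± 0.24, limma adjusted p = 0.00167), and in FHT1015 58918.5 and 27763, against 109036 and 121680 (1.51). The KCl groups stand above the unstimulated ones without overlap in each case. The non-targeting call at DIV7 was lost without the first unstimulated library or without either KCl library (adjusted p = 0.133, 0.21 and 0.122), and the Arid2 knockout call without either KCl library or the second unstimulated one (adjusted p = 0.107, 0.0606 and 0.0894). The response at DIV18 exceeded that at DIV7 by 4.97 ± 0.47 (limma adjusted p = 0.00403), but with whole intervals ranked in place of summits the difference was −0.91 (adjusted p = 0.623), and with the number of summits as a covariate its adjusted p was 0.137.

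The +3.3 kb site was the peak of a stretch of 11 sites between +1 and +8 kb, chosen after its values were seen and therefore given as counts. The 10 DIV18 KCl libraries had 9 to 11 of the 11 among their best 75000 summits, against 2 to 4 in the 10 unstimulated libraries. In the Arid2 experiment the counts were 6 to 7 with KCl, against 2 unstimulated, and in the FHT1015 experiment 3 to 8, against 2 to 3. All 11 rose in non-targeting DIV18 neurons, by 2.10 to 7.17, where 9.72% of all sites rose. Of the 11, 7 were held at DIV18 by KCl libraries alone. The site at +2.7 kb (17:26505516-26506015), at the end of the gene body, was not listed in either unstimulated non-targeting library at DIV18 or DIV7. It ranked 2530 and 2038 with KCl at DIV18 and 78423 and 82551 with KCl at DIV7.

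**Figure D3:**
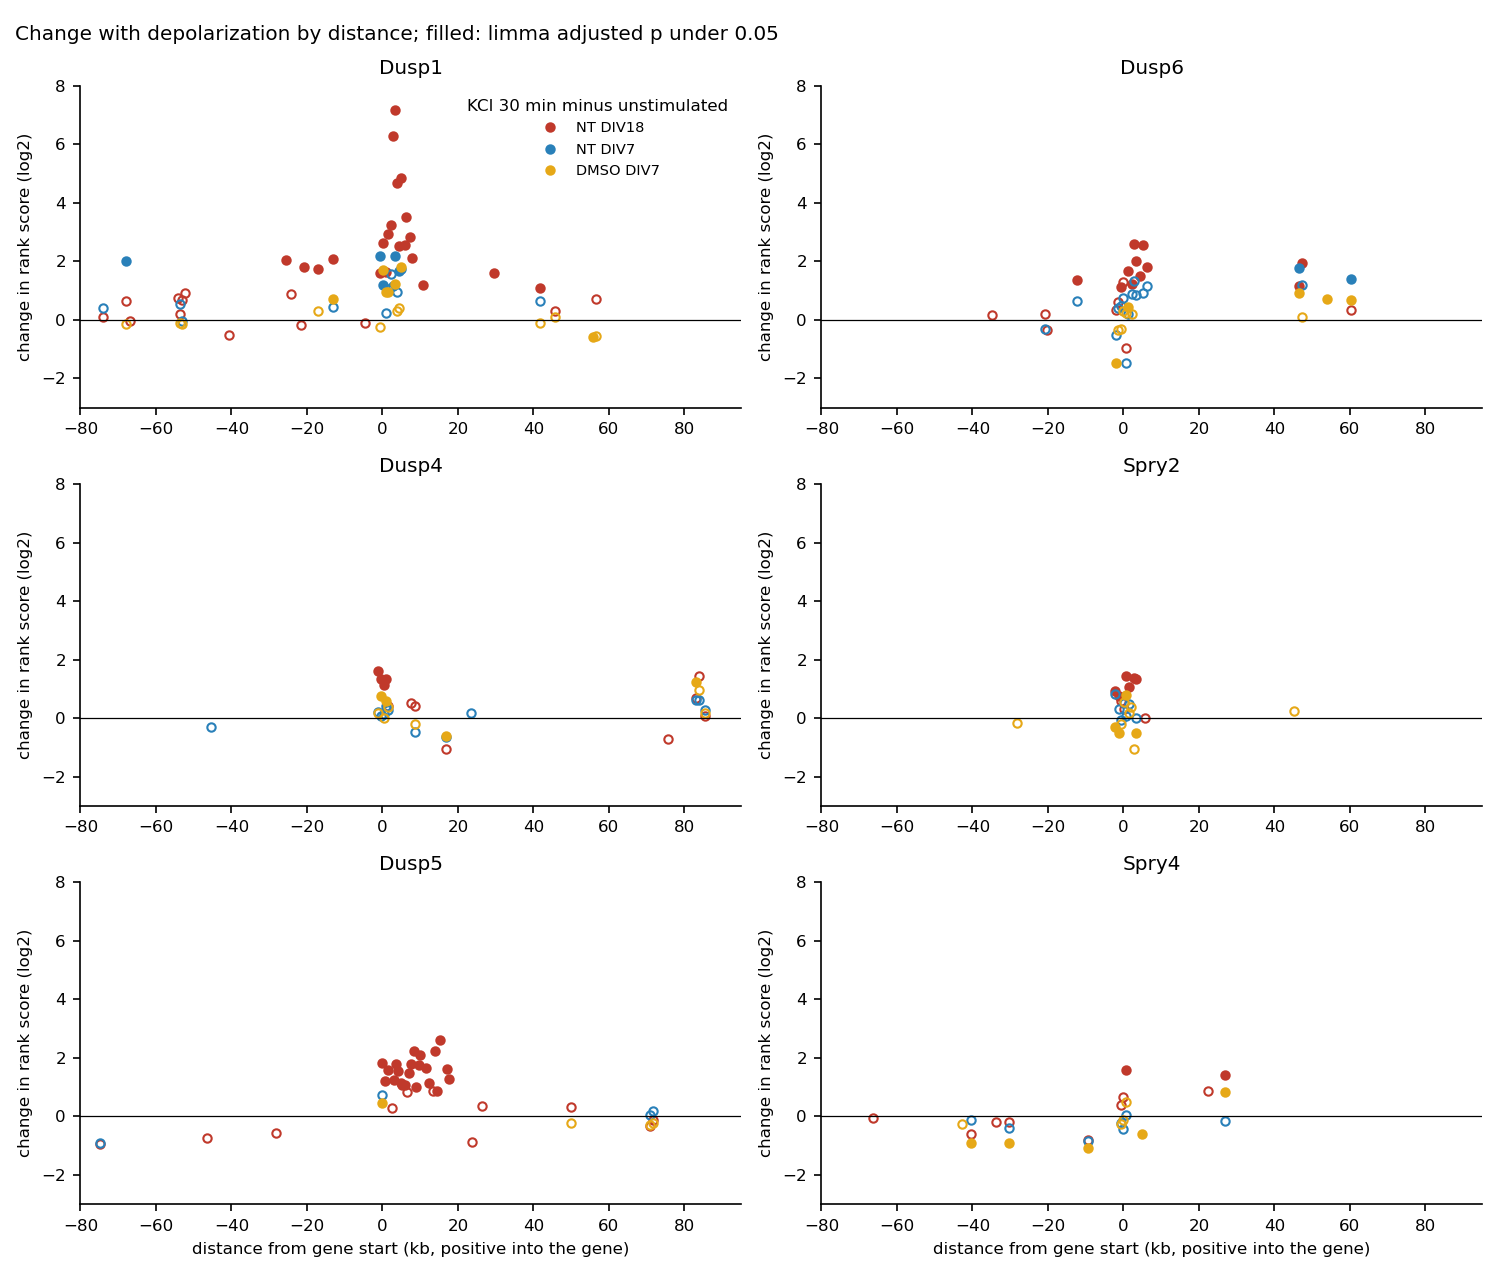
Change in rank score with KCl for each tested site, against its distance from the gene's start in kb (positive into the gene), for the 6 genes, after 30 min in non-targeting neurons at DIV18 and DIV7 and in DMSO wells, filled where called. The highest points are at Dusp1, +2.7 kb (6.30) and +3.3 kb (7.17). At Dusp5 a run of DIV18 points between 0.28 and 2.61 follows the gene body and continues past its end, to +18 kb.

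Upstream of Dusp1, sites differed by genotype. The site at −67.9 kb (17:26576099-26576598), inside the neighbouring gene Ergic1, ranked 55271 and 50340.5 in unstimulated Smarcc2 knockout neurons with vector, against 14490.5 and 19592.5 in non-targeting neurons. The groups do not overlap, and the change was −1.65 ± 0.27 (limma adjusted p = 0.00135). The site at −4.6 kb (17:26512799-26513298) ranked 60838.5 and 39735 in the knockout with vector, against 17805 and 18641 in non-targeting neurons, a change of −1.43 ± 0.34 (limma adjusted p = 0.00998), not called without the first non-targeting or the first knockout library (adjusted p = 0.0672 and 0.0951). With wild-type Smarcc2 added back that site ranked 30838 and 27629.5, with S586A 27844.5 and 28397.5 and with S586E 23597 and 33279.5, between the knockout and the non-targeting libraries. Its rank scarcely moved with KCl in non-targeting DIV18 neurons, where it was 18847.5 and 20620.5.

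Dusp5 was accessible along nearly its whole gene body with KCl at DIV18. Intervals covered 97.0% to 98.6% of the gene (19:53529145-53541809) in the 10 DIV18 KCl libraries, against 25.1% to 40.3% in the 10 unstimulated ones. In the Arid2 experiment the cover was 10.7% to 14.3%, against 8.29% to 11.5%, and in DMSO wells 10.0% to 10.9%, against 11.1% to 13.5%. The interval over the start grew to 5.11 to 11.9 kb in the DIV18 KCl libraries, against 1.44 to 4.32 kb unstimulated. The other genes changed less in cover at DIV18. Dusp4 was covered over 48.7% to 64.4% with KCl, against 31.9% to 43.7%, Dusp6 over 94.1% to 100%, against 61.4% to 79.2%, Spry2 over 85.3% to 97.1%, against 62.1% to 82.6%, and Spry4 over 15.2% to 21.5%, against 13.2% to 19.0%. Dusp1, already covered over 83.7% to 100% unstimulated, was at 100% with KCl. The Spry4 ranges overlap, and those of Dusp4, Dusp5, Dusp6 and Spry2 do not.

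**Figure D4:**
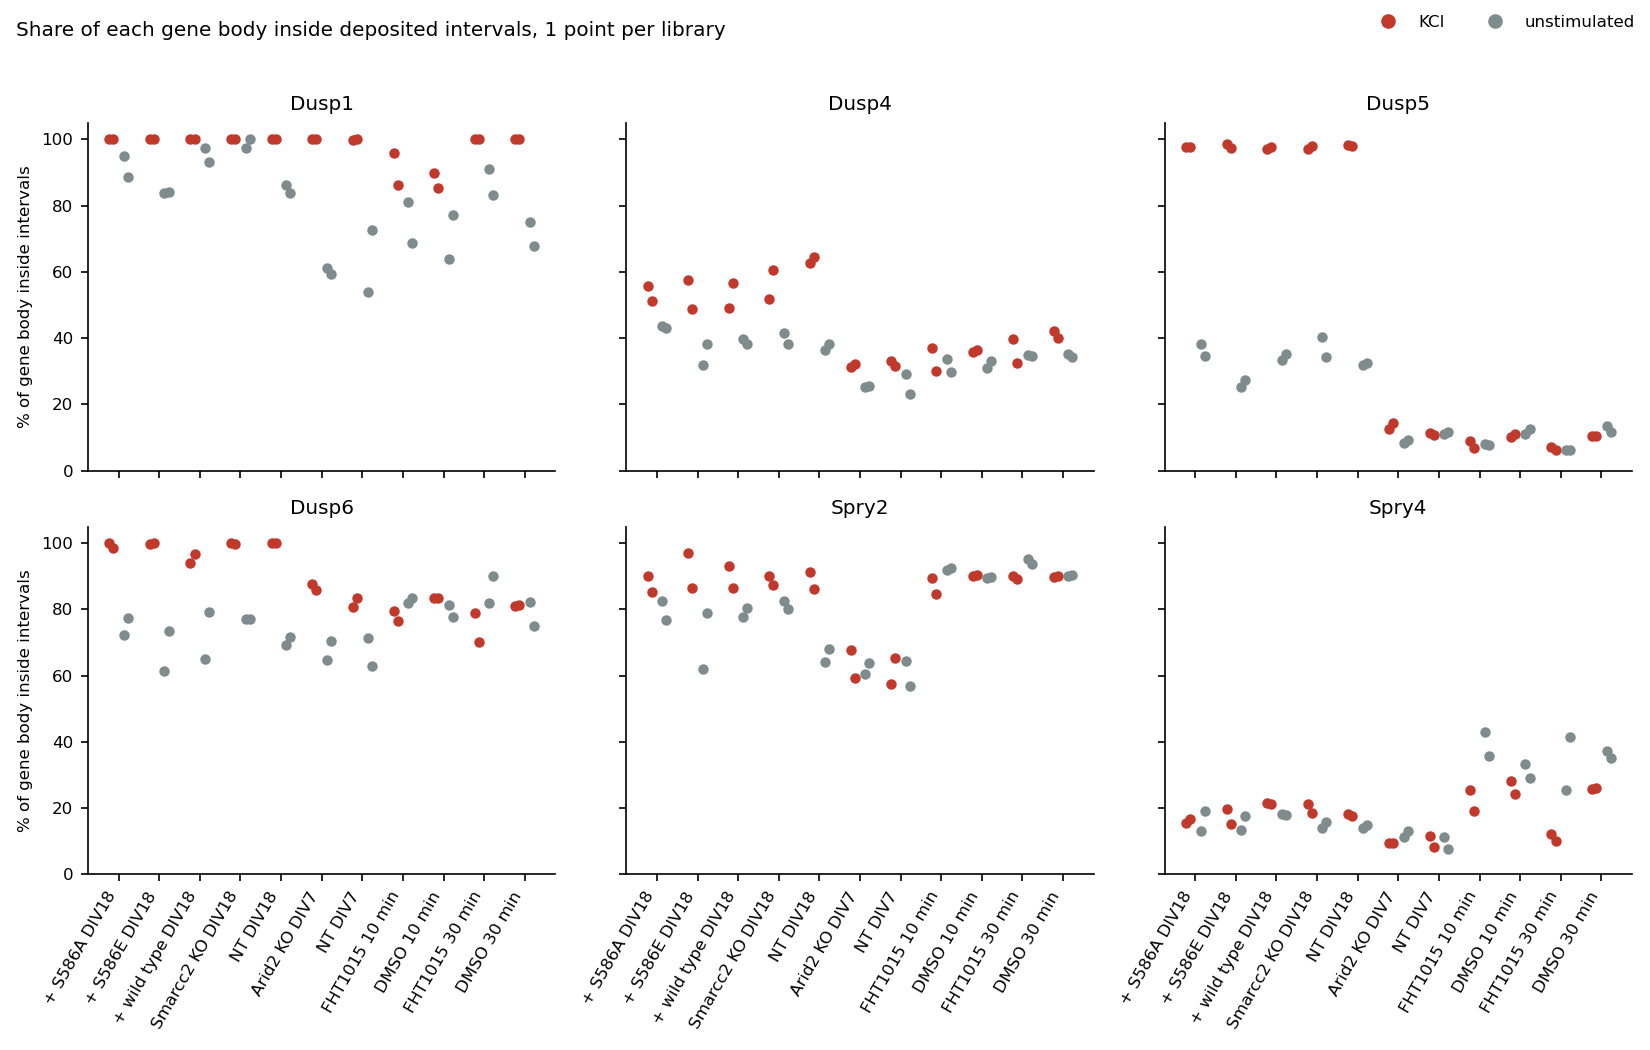
Share of each gene body covered by intervals, in percent, with 1 point per library and the groups of each experiment on the horizontal axis. Dusp5 is at 97.0% to 98.6% in the DIV18 KCl libraries, against 25.1% to 40.3% unstimulated, and at most 14.3% in every DIV7 library.

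The 24 sites of Dusp5 between +0.5 and +18 kb showed the same in ranks. This stretch runs past the gene's end and was also chosen after its values were seen. The DIV18 KCl libraries listed 22 to 24 of the 24 sites and the unstimulated libraries 5 to 7. Among the best 75000 summits the KCl libraries had 9 to 24, median 20, against 4 to 5; the lowest, 9, was the second S586E library. In the Arid2 experiment 4 to 5 were listed with KCl, against 2 unstimulated, and in the FHT1015 experiment 0 to 2 in either state. In non-targeting DIV18 neurons the changes were 0.28 to 2.61 over the stretch, and 21 of the 24 were called higher (9.72% of all sites). Of the 24, 19 were held among the best 75000 summits at DIV18 by KCl libraries alone, so that they could hardly fall, and 17 of the 21 calls are among them. The site at +8.4 kb (19:53537279-53537778), mid-gene, ranked 48959 and 29307.5 with KCl there and was not listed in any unstimulated or any DIV7 library. Its change was 2.24 ± 0.32 (limma adjusted p = 6.92e-05). It was tested only because the DIV18 KCl libraries held it, so its direction was fixed by the choice of sites, and its difference from DIV7 is the same value.

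The Dusp5 start (19:53528776-53529275) moved less than Dusp1's. In non-targeting DIV18 neurons it ranked 1392.5 and 1507.5 with KCl, against 4212 and 6261 unstimulated, a change of 1.83 ± 0.24 (limma adjusted p = 2.259e-05). It rose by 1.81 with S586A, 1.39 with S586E, 1.46 with wild-type Smarcc2 and 1.42 with the vector. At DIV7 it ranked 7387.5 and 7231 with KCl, against 11897 and 12569.5 in the non-targeting libraries; these do not overlap, but the change of 0.74 was not called (limma adjusted p = 0.272). In DMSO it ranked 5082.5 and 4670 after 30 min of KCl, against 5771.5 and 7612.5, a change of 0.44 ± 0.15 (limma adjusted p = 0.0282), not called without either KCl library or the second unstimulated one (adjusted p = 0.0642, 0.136 and 0.261).

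Dusp4, the remaining nuclear phosphatase, rose near its start. The site at −0.5 kb (8:34806887-34807386) ranked 4356 and 4005 after 30 min of KCl in DMSO, against 7342.5 and 6845.5, a change of 0.76 ± 0.12 (limma adjusted p = 0.000453). With FHT1015 it ranked 4501 and 4496 with KCl, against 7142.5 and 7625.5, a change of 0.71 ± 0.12. In non-targeting DIV18 neurons it ranked 7300.5 and 6462.5 with KCl, against 21318.5 and 14139, a change of 1.34 ± 0.29 (limma adjusted p = 0.00269). No pair of groups overlaps. The site nearest to the start changed by 1.15 ± 0.29 there (limma adjusted p = 0.00708) and was not called with KCl in DMSO. The unstimulated site at −0.5 kb stood lower at DIV18 (21318.5 and 14139) than at DIV7 (4457 and 5655) by −1.79 ± 0.25 (limma adjusted p = 0.000376), and at Dusp4 0 sites rose and 7 of 11 fell between these days, against 32.5% and 26.4% of all sites; over the members, most calls between days were lost with the number of summits as a covariate (9 of 40).

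The highest-ranked distal site of Dusp4 lay at +83.1 kb (8:34890472-34890971), inside the neighbouring gene Tnks. It ranked 3354.5 and 3017.5 after 30 min of KCl in DMSO, against 8420.5 and 6719 (1.24 ± 0.16, limma adjusted p = 9.217e-05), and 4582 and 4378 with FHT1015, against 10230 and 9193.5 (1.11 ± 0.16, limma adjusted p = 0.000143). The groups are apart in both. In non-targeting neurons it ranked 3930.5 and 5093.5 with KCl at DIV18, against 8837.5 and 5953, where the pairs are close and no call was made.

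Dusp6, the cytoplasmic phosphatase, had called KCl changes inside and around the gene but not at its start. In non-targeting DIV18 neurons the start ranked 301 and 150.5 with KCl, against 767.5 and 359 unstimulated, without overlap but with a wide spread (1.30 ± 0.51, limma adjusted p = 0.0682). Inside and just past the gene, 6 of the 6 sites between +2 and +6.5 kb rose, by 1.24 to 2.61, of which 4 were held among the best 75000 summits by KCl libraries alone and so could hardly fall. At +2.8 kb (10:99265819-99266318) the ranks were 24336 and 27872.5 with KCl, against 151084 and 167243 (2.61 ± 0.33, limma adjusted p = 1.388e-05). At +5.1 kb (10:99268087-99268586), in the noncoding gene Gm34921, they were 24553.5 and 37852.5, against 266402 and not listed (2.55 ± 0.42, limma adjusted p = 0.00027). This stretch was chosen after its values were seen. Of its 6 sites, 5 rose with S586A, 4 with S586E, 2 with wild-type Smarcc2 and 5 with the vector. Over all sites 5.46%, 5.45%, 7.27% and 5.03% rose in that order, and 9.72% in non-targeting neurons. At DIV7, 0 of the 5 tested in non-targeting neurons were called by limma, with changes of 0.85 to 1.32 and 3 at an unadjusted p under 0.05. Only 0.664% of all sites rose in that comparison.

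Downstream of Dusp6, the site at +60.2 kb (10:99323220-99323719) responded to KCl at DIV7. It ranked 7634.5 and 7557.5 with KCl in non-targeting neurons, against 22523.5 and 18133 (1.41 ± 0.26, limma adjusted p = 0.0163), and 6556.5 and 8986.5 in Arid2 knockout neurons, against 20024.5 and 25773 (1.56 ± 0.26, limma adjusted p = 0.00736). The groups are apart in both genotypes. The non-targeting call was lost without either KCl library (adjusted p = 0.154 and 0.129) or the first unstimulated one (0.123), and the knockout call without the first KCl library (0.124) or the second unstimulated one (0.0879). At DIV18 the change was 0.35 (limma adjusted p = 0.518).

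In the Arid2 experiment as a whole, 7 of 62 tested sites rose in non-targeting neurons and 4 in Arid2 knockout neurons, and 0 fell in either. Over all 66239 tested sites, 0.664% rose and 0.104% fell in non-targeting neurons, and 0.687% and 0.181% in the knockout. Of the 62, 13 were held among the best 75000 summits by KCl libraries alone and could hardly fall, and 0 by unstimulated libraries alone. Among the 13 were 2 of the 7 calls and 1 of the 4. The 7 were 5 sites at Dusp1 and 2 at Dusp6, and the 4 were 3 at Dusp1 and 1 at Dusp6. Both counts rest on few libraries: leaving out 1 library gave 0 to 2 and 1 to 2 called sites for every library left out, and the number of summits as a covariate gave 0 for both. The Arid2 knockout against the non-targeting guide called 0 member sites unstimulated (0.0574% of all sites, 2 member sites at an unadjusted p under 0.05), and limma called 0 for the difference in KCl response (0.0468%, 4 at an unadjusted p under 0.05).

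FHT1015 moved sites in unstimulated neurons within 10 min. After 10 min, 10 of 62 member sites rose and 17 fell against DMSO (12.2% and 27.5% of all 73460 tested sites), and after 30 min 18 rose and 18 fell (23.0% and 40.1%). The members' shares were 16.1% and 27.4% at 10 min and 29.0% in each direction at 30 min. By gene the 30 min calls were uneven, with 7 up and 5 down of 17 at Dusp1, 4 and 2 of 10 at Dusp4, 1 and 0 of 4 at Dusp5, 2 and 5 of 11 at Dusp6, 4 and 1 of 11 at Spry2 and 0 and 5 of 9 at Spry4. FHT1015 libraries listed fewer summits than DMSO libraries, and with the number of summits as a covariate the 36 calls became 18.

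The Dusp6 site at +60.2 kb fell furthest of the members with FHT1015. It was not listed in either library after 30 min of FHT1015, against ranks of 29555.5 and 30800.5 in DMSO (−2.57 ± 0.19, limma adjusted p = 8.689e-08). After 10 min it ranked 67820 and 84206.5, against 30275 and 35597.5 (−1.20 ± 0.19, limma adjusted p = 0.000263). With KCl and FHT1015 for 30 min it was back at 22252 and 17439, near the 19205.5 and 18551.5 of KCl with DMSO. The KCl change was therefore 3.18 ± 0.19 in FHT1015 (limma adjusted p = 1.034e-07) and 0.68 ± 0.19 in DMSO (limma adjusted p = 0.0119). The difference between them was 2.50 ± 0.27 (limma adjusted p = 4.375e-05). Both unstimulated FHT1015 libraries scored 0, so the KCl change in FHT1015 could not be negative. Each of these contrasts shares the unstimulated FHT1015 or DMSO libraries with another, so they are not independent.

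The Dusp6 site at +47.2 kb (10:99310171-99310670) showed the same order. It ranked 197470 and 234101 with FHT1015 alone, against 48036 and 43639 in DMSO (−1.96 ± 0.17), and 63839 and 56356 with FHT1015 and KCl. Its KCl change was 1.57 ± 0.17 in FHT1015 and 0.11 in DMSO (adjusted p = 0.637), a difference of 1.47 ± 0.24 (limma adjusted p = 0.000656). Both libraries with FHT1015 alone were past rank 178672 and scored 0, so the change in FHT1015 could not be negative here either. At Dusp6's own start FHT1015 alone gave 751 and 714, against 329 and 324.5 in DMSO (−1.16 ± 0.30, limma adjusted p = 0.00388), with no overlap. The start was still among the best-ranked summits of those libraries.

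With FHT1015 alone, distal sites of Dusp1 and Dusp4 moved in both directions. Dusp1 at −13.0 kb (17:26521191-26521690) was not listed in the first library and at 168855 in the second, against 71251.5 and 39648.5 in DMSO (−1.71 ± 0.22, limma adjusted p = 9.599e-06). At DIV18 that Dusp1 site rose with KCl in non-targeting neurons, to 19696 and 20401, against 80985 and 87573.5 (2.07 ± 0.40, limma adjusted p = 0.00113). Dusp4 at +83.8 kb ranked 112796 and 30287.5, against 218488 and 211514 (1.61 ± 0.55, limma adjusted p = 0.0187), a call lost without either DMSO library or the second FHT1015 library (adjusted p = 0.0647, 0.0656 and 0.303). Dusp4 at +16.8 kb (8:34824133-34824632) was not listed and at 186816, against 71972 and 65876.5 (−1.38 ± 0.18, limma adjusted p = 1.044e-05). In unstimulated Smarcc2 knockout neurons with vector, at DIV18, that Dusp4 site ranked 87922.5 and 54151.5, against 20232 and 37645.5 in non-targeting neurons (−1.32 ± 0.39, limma adjusted p = 0.0295), a call lost without the first non-targeting library (adjusted p = 0.29) or without either knockout library (adjusted p = 0.201 and 0.0549). It was lower with the inhibitor and lower in the knockout, at different days and in different experiments.

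**Figure D5:**
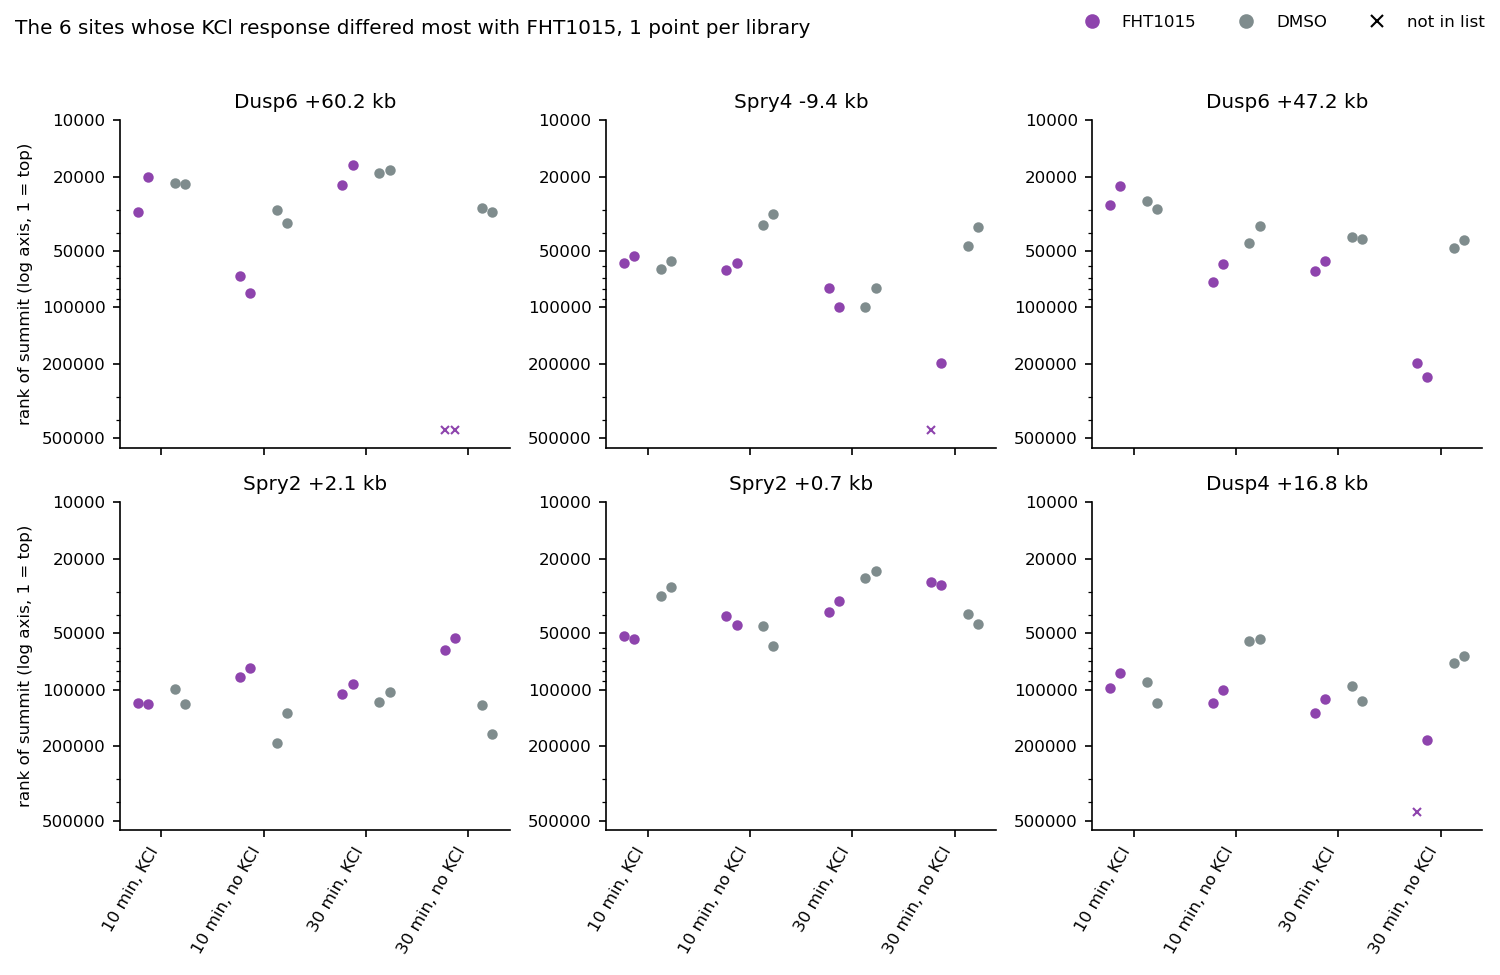
Rank (log axis, rank 1 at the top) of 6 member sites by time and state, with 1 point per library. A cross below the end of the list marks a site not listed. The 6 had the largest called differences in KCl response between FHT1015 and DMSO, with at most 2 sites per gene. Differences that were not called, such as −1.588 at the Spry2 start, are not shown. Dusp6 +60.2 kb is not listed with FHT1015 alone for 30 min and lies at 22252 and 17439 with FHT1015 and KCl, near the 19205.5 and 18551.5 of KCl with DMSO.

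KCl in DMSO called 11 member sites higher and 4 lower after 10 min (7.60% and 12.7% of all sites) and 16 and 10 after 30 min (14.1% and 25.1%). In FHT1015, 30 min of KCl called 19 higher and 6 lower (18.4% and 13.1%). The members' shares that rose were 17.7%, 25.8% and 30.6%. Of the members' 62 tested sites, 5 were held among the best 75000 summits by KCl libraries alone and 8 by unstimulated libraries alone. In the same order, the former gave 2, 5 and 3 of the rises, and the latter 2, 4 and 3 of the falls. The 15 calls at 10 min became 7 without either unstimulated library and 8 without either KCl library, and the 26 at 30 min became 17 without the second KCl library. The response in FHT1015 minus that in DMSO was called positive at 10 sites and negative at 3 (18.3% and 6.48%), shares of 16.1% and 4.84% of the members, which are close to those of all sites.

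Spry2 was accessible just before its start, where no change was called. The site at −0.6 kb (14:105897122-105897621) ranked 1821 and 1657 with KCl in non-targeting DIV18 neurons, against 2990 and 2295.5 unstimulated, and was called in 0 of 21 comparisons. Changes were called inside the gene and also upstream of it. At −1.1 and −2.1 kb the change with KCl in non-targeting DIV18 neurons was 0.77 ± 0.26 and 0.93 ± 0.29 (limma adjusted p = 0.0362 and 0.0265), and in DMSO after 30 min −0.50 ± 0.14 and −0.30 ± 0.11 (limma adjusted p = 0.0118 and 0.0476). The site at −28.1 kb was higher with FHT1015 after 30 min (0.99 ± 0.18, limma adjusted p = 0.000298). At +0.7 kb (14:105895821-105896320) the ranks were 31310 and 34579 with KCl at DIV18, against 89966 and 87573.5 (1.43 ± 0.30, limma adjusted p = 0.00234). In DMSO they were 25307 and 23369.5 after 30 min of KCl, against 39419 and 44491 (0.78 ± 0.15, limma adjusted p = 0.00123), and in FHT1015 38685 and 33454, against 26497 and 27624 (−0.41, limma adjusted p = 0.0477). The groups are apart in each, and the response in FHT1015 was lower than in DMSO by −1.20 ± 0.21 (limma adjusted p = 0.00114). With whole intervals ranked, that difference was 0.32 (adjusted p = 0.421), the change in DMSO was −0.17, and the DIV18 change of 0.63 was not called (adjusted p = 0.747).

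Further into Spry2, FHT1015 alone raised sites. At +3.4 kb (14:105893141-105893640) the ranks were 20914 and 21057.5 with FHT1015 for 30 min, against 48425 and 46726 in DMSO (1.18 ± 0.19, limma adjusted p = 6.79e-05). At +2.1 kb (14:105894434-105894933) they were 61173.5 and 53135.5, against 120938 and 171994 (1.34 ± 0.20, limma adjusted p = 3.469e-05), but −0.15 with whole intervals ranked. Both were called lower with KCl in FHT1015, by −0.89 ± 0.19 and −0.80 ± 0.20, the second not without the second unstimulated FHT1015 library. The +3.4 kb site was also called lower with KCl in DMSO after 30 min (−0.50 ± 0.19, limma adjusted p = 0.0446). Its response did not differ past the threshold between the treatments (−0.39, limma adjusted p = 0.311). The site over the Spry2 start was called once, higher with KCl in neurons with wild-type Smarcc2 (1.31 ± 0.46, limma adjusted p = 0.0482), and not without any 1 of those 4 libraries (adjusted p = 0.112 to 0.192).

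The Spry4 start was lower at DIV18. The site (18:38601113-38601612), which ends beside the neighbouring gene Arhgap26 (from 38601617), ranked 25716.5 and 27510.5 in unstimulated non-targeting neurons at DIV18, against 3919 and 3840 at DIV7. The change was −2.78 ± 0.19 (limma adjusted p = 4.929e-05), and day and experiment cannot be told apart. No KCl comparison called it. The Smarcc2 knockout with vector ranked it 18164.5 and 12798.5, against 25716.5 and 27510.5 (0.80 ± 0.25, limma adjusted p = 0.0381), a call lost without either non-targeting library (adjusted p = 0.117 and 0.106) or the second knockout library (0.307).

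Inside Arhgap26, 1 distal site of Spry4 was lower both with the inhibitor and in the Smarcc2 knockout. At −9.4 kb (18:38610491-38610990) FHT1015 for 30 min left the site not listed and at 197487, against 47222.5 and 37278 in DMSO (−2.09 ± 0.18, limma adjusted p = 2.915e-07). In the Smarcc2 knockout with vector it ranked 130037 and 116530, against 45390.5 and 23008.5 in non-targeting neurons (−1.93 ± 0.40, limma adjusted p = 0.00484). Libraries with S586A (42030.5 and 25715.5), S586E (42987 and 42881.5) or wild-type Smarcc2 (28213.5 and 49373.5) lay within the range of the non-targeting ones or just past it, and well above the vector. Without the second non-targeting library the knockout change was −1.44 and not called (adjusted p = 0.0509).

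The KCl change at the −9.4 kb site of Spry4 was negative in DMSO and positive in FHT1015. The site fell in DMSO, to 99935.5 and 79007.5 with KCl (−1.08 ± 0.18, limma adjusted p = 0.000491), and rose in FHT1015, to 78439.5 and 99648 (1.01 ± 0.18, limma adjusted p = 0.000716). Both unstimulated FHT1015 libraries scored 0 there, not listed or past rank 178672, so the KCl change in FHT1015 could not be negative. The KCl libraries of the 2 treatments overlap, and the unstimulated ones are apart. The difference in response was 2.10 ± 0.25 (limma adjusted p = 9.489e-05). At −40.4 kb (18:38641501-38642000) FHT1015 alone gave not listed and 260374, against 67199.5 and 49590.5 (−1.63 ± 0.20, limma adjusted p = 5.75e-06). At DIV18 KCl lowered that site with S586A (−1.18), wild-type Smarcc2 (−1.04) and the vector (−1.06). These calls were lost without either unstimulated library or the second KCl library for S586A (adjusted p = 0.0604 to 0.167), without either KCl library or the second unstimulated one for wild-type Smarcc2 (0.0863 to 0.236), and without any 1 of the 4 for the vector (0.063 to 0.229).

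Between genotypes at DIV18, the KCl responses of the members did not differ past the threshold. limma called 0 member sites for the knockout with vector minus the non-targeting guide (0.0128% of all sites, 11 members at an unadjusted p under 0.05). It called 0 for S586A minus wild-type Smarcc2 (0.00583%, 6) and 0 for S586E minus wild-type Smarcc2 (0.00233%, 7). A missed threshold does not show that the responses were alike. Unstimulated, the knockout with vector had 9 sites higher and 4 lower than the non-targeting guide (2.84% and 8.90%), a count of 13 that became 2 without the first non-targeting library and 6 or 3 without the first or second knockout library.

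Between days, 23 of 97 sites were higher and 17 lower at DIV18 than at DIV7 in unstimulated non-targeting neurons (32.5% and 26.4% of 81285 sites), shares below those of all sites. These 40 calls became 9 with the number of summits as a covariate and 23 with the best 75000 summits. The KCl response was larger at DIV18 at 24 of the 97 and smaller at 0 (1.53% and 2.05%), 12 of them at Dusp5, 11 at Dusp1 and 1 at Dusp6. Of these 24, 18 were among the 21 sites that only the DIV18 KCl libraries held, where the direction was fixed by the choice of sites. Of the 59 sites that at least 1 DIV7 library held, 5 were larger and 0 smaller, against 1.00% and 0.773% of all such sites. That count was 13 to 15 without any 1 of the DIV7 libraries, and 0 with the number of summits as a covariate. These comparisons use the same 8 libraries as the non-targeting KCl results above.

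Other genes of the pathway were read at their start sites. Among 7 further MAP kinase phosphatases, 3 rose and 0 fell after 30 min of KCl in DMSO (14.1% and 25.1% of all sites), and 2 rose and 0 fell in each of the 5 KCl comparisons at DIV18 (5.03% to 9.72% and 4.44% to 13.3%). By limma 0 were called with KCl after 10 min in DMSO (7.60% of all sites rose and 12.7% fell) or in FHT1015 (18.4% and 13.1%). In the Arid2 experiment 0 were called in either genotype, where few sites were called at all. There 0.664% of all sites rose and 0.104% fell in non-targeting neurons, and 0.687% and 0.181% in the knockout. Dusp14, a small phosphatase of the family, changed by 1.36 ± 0.26 in DMSO (limma adjusted p = 0.00147) and by 1.24 to 1.49 at DIV18. Dusp16, which acts on JNK and p38, rose with FHT1015 for 30 min (1.06 ± 0.17, limma adjusted p = 7.117e-05). Among 5 further genes listed beside the Sprouty genes, 1 rose and 1 fell after 30 min of KCl in DMSO. In non-targeting DIV18 neurons limma called 0 of the 4 tested with KCl. Il17rd, an inhibitor of growth factor signalling, rose at DIV18 with the vector (1.04), wild-type Smarcc2 (1.28), S586A (1.02) and S586E (0.96). In either genotype of the Arid2 experiment, limma called 0 of 15 tested ERK cascade genes (0.664% and 0.687% of all sites rose). Of 16 ERK cascade genes with a start site, out of 21 listed, 6 rose and 1 fell after 30 min in DMSO. In the KCl comparisons at DIV18, 1 to 3 of the 16 rose. The 6 that rose in DMSO included the Ras activators Rasgrf1 (1.51 ± 0.17, limma adjusted p = 4.502e-05) and Rasgrp1 (1.32 ± 0.17, limma adjusted p = 8.536e-05). Of 5 ERK-responsive factors with a start site, 1 rose after 30 min in DMSO.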

How the data were processed

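Open chromatin was profiled by ATAC-seq in 44 libraries of cultured mouse cortical neurons, 2 in each of 22 groups, and the deposited data are peak lists on build mm10, 1 per library. The tools named in the submitters' processing notes, without versions, are Bowtie2, SAMtools, bedtools, Picard, FastQC, Trim Galore and the caller MACS2. A list holds 1 line per summit, with the interval around it. The authors' peak caller gave each summit a −log10 p, a −log10 q and a fold enrichment over the library's background, and these deposited values depend on depth. Here the −log10 p only ranked autosomal summits within a list, the −log10 q was not used, and the fold enrichment only gave the background level.

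Windows of 500 bp were centred on the best 75000 summits of each library, best rank first, without overlaps, giving 135496 sites. The rank score was log2(178672/rank), or 0 below that rank. The steps were tested on simulated data with known changes. Sites held by at least 2 libraries of an experiment were fitted with limma 3.58.1 in R 4.3.3 (1 mean per group, trend, Benjamini-Hochberg adjustment over all sites fitted): 73460 sites in the FHT1015 experiment (16 libraries), 66239 with Arid2 (8), 85822 at DIV18 (20) and 81285 for the days (8 non-targeting libraries). Of the members' sites, 62, 62, 117 and 97 passed this filter. Sites that pass only through libraries of 1 state can hardly change toward the other. Their number is given beside the counts of KCl calls over the members. A call is an adjusted p under 0.05, and 21 comparisons were made.

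Named sites were the start site of each member, up to 2 called sites per member and comparison with the largest changes, and each member's highest-ranked distal site. Other pathway genes were read at their start site, with values for called ones among the 3 largest changes of a comparison. Other sites in the text were chosen after their values were seen, as were the stretches at Dusp1, Dusp5 and Dusp6. The members, gene lists and tests were chosen with earlier results of these data known. Gene positions, neighbours and promoters came from RefSeq. The strands of Dusp4 and Spry4 came from general knowledge, and exons and introns were not resolved. Alternatives were another list length, no filter on sites, intervals ranked in place of summits, the number of summits as a covariate, a replicate block, a narrower match and leaving out each library.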

Additional observations from a re-analysis of the deposited data

Results flagged for a closer look

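For 14 named sites, at most 2 per member and comparison, the KCl response differed between conditions by a test of the difference itself, in limma. Several are described above. The same tests called 24 member sites between days, and 10 higher and 3 lower between FHT1015 and DMSO. Called sites not named here include Spry2 −2.1 kb, where the response was larger with FHT1015 (0.54), and Spry2 +45.2 kb, where it was smaller (−0.72).

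Between DIV18 and DIV7 in non-targeting neurons, the response was larger at DIV18 by 5.147 at Dusp1 +2.7 kb, 4.973 at Dusp1 +3.3 kb, 2.614 at Dusp5 +15.4 kb, 2.238 at Dusp5 +8.4 kb and 1.377 at Dusp6 +4.4 kb. Dusp6 +4.4 kb ranked 69172.5 and 58574 with KCl at DIV18, was not listed unstimulated at either day, and at DIV7 with KCl was at 152948 in 1 library and not listed in the other. All but Dusp1 +3.3 kb were held among the best 75000 summits by the DIV18 KCl libraries alone of the 8 non-targeting ones, which fixed the direction of their difference. With whole intervals ranked the difference was −0.56 at Dusp1 +2.7 kb and −0.91 at +3.3 kb. The differences at Dusp5 +8.4 kb and Dusp6 +4.4 kb were not called without either unstimulated DIV7 library or the second DIV7 KCl library (adjusted p = 0.064 to 0.0698 and 0.061 to 0.066), nor that at Dusp5 without the first DIV7 KCl library. Day and experiment cannot be told apart, and none of the 5 was called with the number of summits as a covariate.

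Between FHT1015 and DMSO at 30 min, the response was larger with FHT1015 by 2.504 at Dusp6 +60.2 kb, 2.098 at Spry4 −9.4 kb, 1.468 at Dusp6 +47.2 kb, 1.144 at Dusp4 +16.8 kb and 1.126 at Spry4 −40.4 kb. It was also larger by 0.9435 at Dusp1 +4.3 kb and 0.8889 at Dusp1 +3.8 kb. At both named Spry2 sites it was smaller, with differences of −1.197 at Spry2 +2.1 kb and −1.195 at Spry2 +0.7 kb. With whole intervals ranked the direction turned at Dusp1 +4.3 kb (−0.000922, and −0.56 with a summit within 100 bp), Spry2 +0.7 kb (0.32) and Spry2 +2.1 kb (0.32). At 7 of these 9 sites the unstimulated FHT1015 libraries ranked lower than the unstimulated DMSO libraries, and at both Spry2 sites higher. Dusp1 +4.3 kb, for instance, ranked 60301.5 and 72576 with FHT1015 alone, against 34881 and 30800.5 in DMSO, and with KCl 29810 and 22236, against 26073.5 and 23081.5. Both Dusp1 differences were lost without any 1 of 4 of the 8 libraries (adjusted p = 0.0593 to 0.072 at +4.3 kb and 0.066 to 0.0914 at +3.8 kb). The 4 were the first DMSO and the second FHT1015 library with KCl for both sites, with the second unstimulated library of each treatment at +4.3 kb and the first of each at +3.8 kb. These differences share their unstimulated libraries with the FHT1015 contrast in unstimulated neurons. At both Dusp6 sites, both Spry4 sites and Dusp4 +16.8 kb, both unstimulated FHT1015 libraries were not listed or past rank 178672. They scored 0 there, so the KCl change in FHT1015 could not be negative at those sites.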

How the results depend on the processing

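Counts of called member sites moved by over 1.5 times as follows, and the cause was not tested. With intervals ranked, 10 min of KCl in DMSO gave 8 (15 as reported), 10 min of FHT1015 gave 15 (27), the FHT1015 difference in KCl response 6 (13) and KCl in Arid2 knockouts 11 (4). With the best 75000 summits, KCl gave 1 in non-targeting DIV7 neurons (7), 0 in Arid2 knockouts, 30 with the vector (50), 26 with wild-type Smarcc2 (51), 24 with S586A (48) and 19 with S586E (41). On that list the unstimulated knockout gave 6 (13), its difference in KCl response 1 (0) and the days 23 (40). With a summit within 100 bp, KCl gave 1 in non-targeting DIV7 neurons and 0 in Arid2 knockouts, and the unstimulated knockout 5. With the number of summits as a covariate, 30 min of FHT1015 gave 18 (36), the days 9, and KCl at DIV7 in non-targeting and Arid2 knockout neurons and the day difference in KCl response 0 each; with sites held by 1 library that difference gave 10 (24).

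Leaving out 1 library gave, for KCl, 7 to 8 calls in DMSO at 10 min, 17 to 22 in DMSO at 30 min, 0 to 2 in non-targeting and 1 to 2 in Arid2 knockout DIV7 neurons, 43 to 57 in non-targeting DIV18 neurons, 31 to 40 with the vector, 28 to 40 with wild-type Smarcc2, 25 to 33 with S586A and 14 to 40 with S586E. It gave 2 to 10 for the unstimulated knockout, 0 to 1 for the S586A difference and 13 to 22 for the day difference in KCl response. Other counts stayed within 1.5 times. A group left with 1 library was assumed to vary like the others.

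Directions turned for these named sites with intervals ranked. For KCl in DMSO, Spry2 +0.7 kb gave −0.26 at 10 min and −0.17 at 30 min, Spry2 +3.4 kb 4.09 and Dusp6 −1.9 kb 0.30. For KCl in FHT1015, Spry2 +2.1 kb gave 0.15. FHT1015 alone gave 0.0992 at Spry4 +0.6 kb (10 min) and −0.15 at Spry2 +2.1 kb (30 min). Its difference in KCl response was 0.32 at Spry2 +0.7 kb and at +2.1 kb and −0.000922 at Dusp1 +4.3 kb, which was −0.56 with a summit within 100 bp. The Spry2 start gave −0.18 for KCl with wild-type Smarcc2, and Dusp6 −0.5 kb −0.18 for the unstimulated knockout. Between days Spry2 +0.7 kb gave 0.0368, and the day difference in KCl response −0.56 at Dusp1 +2.7 kb and −0.91 at +3.3 kb.

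Replicate numbers were not taken to pair the libraries, since not every pair of groups correlated by over 0.1: deviations of same-numbered libraries correlated by −0.0848 to 0.11 in the FHT1015 experiment, 0.00432 to 0.0218 with Arid2, 0.0368 to 0.197 at DIV18 (all 45 pairs above 0, median 0.114) and −0.0204 to 0.155 over the days. With a replicate block no count moved by over 1.5 times (for KCl at DIV18, 68 calls in non-targeting neurons, 57 with wild-type Smarcc2 and 50 with S586E, against 66, 51 and 41 without it). Of 145 named results, the block lost the call of 1, the best 75000 summits of 48, the covariate of 27 and sites held by 1 library of 2. Intervals lost the call of 39 and turned the direction of a further 15. A summit within 100 bp lost the call of 34 and turned the direction of a further 1. Of 636 named results with 1 library left out, 478 kept their call, 158 lost it and 0 turned direction. Depth was known only as background reads per base, and sites low in a list are limited by it.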

Other observations

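The site at −0.7 kb of Dusp1 was not listed in any of the 4 Arid2 knockout libraries, with or without KCl. In non-targeting DIV7 libraries it ranked 38881 and 33444 with KCl, and unstimulated it was not listed in the first and at 150117 in the second. The difference in KCl response was −2.18 ± 0.63 and was not called (limma adjusted p = 0.948). The site at +70.9 kb of Dusp5, beside the start of Smc3, which encodes a cohesin subunit, ranked between 1666 and 5689.5 in all 44 libraries and was called in no KCl comparison.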
